A study of Homo sapiens with 4 samples.

Results

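RCAN3 and SRI encode calcium signalling proteins, and each shares its locus with a noncoding feature on the opposite strand that held most of the counts there. The 5 features described here were RCAN3, NCMAP-DT and NCMAP on chromosome 1, and SRI and SRI-AS1 on chromosome 7, out of 59385 features in the deposited count table. They were found by an exact match of the feature name. NCMAP-DT and SRI-AS1 were chosen by their fold change between the same BHB and control libraries in an earlier look at this table, and the other members by their position beside them. Their BHB and control values are therefore a description, with no test.

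The BHB group was C4-2 cells given 50 mM of the ketone body β-hydroxybutyrate (BHB) in RPMI for 3 days, and the control group was C4-2 cells kept in RPMI medium without it. C4-2 is an established prostate cancer cell line, a descendant of LNCaP that grows without androgen, and all cells had been maintained in RPMI with fetal bovine serum and antibiotics. Total RNA was sequenced from 2 libraries per group, and no label ties a replicate to its own culture, so any spread between replicates may be technical. The total count was 2272004 and 2233711 in BHB replicates 1 and 2, and 2565080 and 2237634 in control replicates 1 and 2. All 10 luminal prostate markers examined, among them KRT8 with 9365 and 9221 counts in BHB and 10831 and 12028 in control libraries, had counts in every library. Among 14 markers of other cell types 11 had 0 counts in all 4 libraries.

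Calcineurin is a phosphatase switched on by calcium and calmodulin, and it activates the NFAT transcription factors by removing phosphate from them. Proteins of the RCAN family, RCAN3 among them, bind calcineurin and restrain it. Sorcin, the product of SRI, is a small penta-EF-hand protein that moves to membranes when it binds calcium and acts on ryanodine receptor channels, and it is known as a protein of drug-resistant cancer cells. NCMAP encodes a myelin-associated membrane protein of peripheral nerve. NCMAP-DT is named as a divergent transcript of NCMAP, and SRI-AS1 as an antisense transcript of SRI.

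The start regions of these genes are shown because the members pair off on opposite strands at each locus. All are 5′ to 3′ from RefSeq (GRCh38.p14), from 250 bases before a start to 25 bases after it. In the region of NCMAP (chr1:24555837-24556111, plus strand), the capitals run over the 64 bases from the NCMAP-DT start, which is read on the minus strand, to the NCMAP start. In the RCAN3 region (chr1:24502586-24502860, plus strand) and the SRI region (chr7:88220014-88220288, minus strand) the capitals mark GC boxes, GGGCGG on either strand. In the SRI-AS1 region (chr7:88216410-88216684, plus strand) the capitals begin at the SRI-AS1 start.
NCMAP and NCMAP-DT: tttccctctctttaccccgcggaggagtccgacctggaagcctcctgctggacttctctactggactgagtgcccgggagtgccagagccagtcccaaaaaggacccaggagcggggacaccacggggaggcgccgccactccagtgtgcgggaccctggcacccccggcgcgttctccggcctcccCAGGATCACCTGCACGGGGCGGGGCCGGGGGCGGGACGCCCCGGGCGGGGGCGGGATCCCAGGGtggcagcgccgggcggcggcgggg
RCAN3: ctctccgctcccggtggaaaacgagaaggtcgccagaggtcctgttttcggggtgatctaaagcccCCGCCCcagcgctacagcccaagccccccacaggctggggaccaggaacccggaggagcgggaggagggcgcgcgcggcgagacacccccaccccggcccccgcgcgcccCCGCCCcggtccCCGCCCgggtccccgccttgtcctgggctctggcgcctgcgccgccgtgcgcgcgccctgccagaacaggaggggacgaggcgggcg
SRI: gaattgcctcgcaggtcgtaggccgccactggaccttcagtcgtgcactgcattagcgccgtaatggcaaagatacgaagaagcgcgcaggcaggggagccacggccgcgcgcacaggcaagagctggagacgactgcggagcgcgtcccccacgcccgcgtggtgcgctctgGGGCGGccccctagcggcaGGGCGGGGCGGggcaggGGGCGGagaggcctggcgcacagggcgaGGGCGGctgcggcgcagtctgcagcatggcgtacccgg
SRI-AS1: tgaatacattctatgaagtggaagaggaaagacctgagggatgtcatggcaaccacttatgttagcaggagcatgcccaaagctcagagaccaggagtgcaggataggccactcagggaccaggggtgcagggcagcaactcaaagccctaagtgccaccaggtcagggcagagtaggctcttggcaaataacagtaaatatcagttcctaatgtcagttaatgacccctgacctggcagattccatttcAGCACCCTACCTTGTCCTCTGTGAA

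The start regions shown differed in CpG content. Over the full 300 bases, CpG pairs numbered 39 at the NCMAP-DT start, 37 at the RCAN3 start shown and 37 at the SRI start shown, more than in 91.3%, 88.7% and 88.7% of the 35116 promoter windows of the RefSeq table. NCMAP had 29, more than in 75.8%. The other 2 RefSeq starts of RCAN3 had 1 and 5, more than in 3.96% and 29.6%. SRI-AS1, whose start lies inside the SRI gene, had 0 CpG pairs in its window and 0 GC boxes. The GC box, found in 45% of all windows, occurred 5 times at NCMAP-DT and 5 times at NCMAP. These are the same 5 boxes, since the windows of NCMAP-DT and NCMAP overlap. The RCAN3 start shown had 3 and the SRI start shown had 5. The letters GGAAA, the core that NFAT factors bind, stood in 61.2% of all windows on either strand, and occurred once at each of the 3 RCAN3 starts, once at NCMAP and once at SRI-AS1, with 0 matches at NCMAP-DT. The SRI start shown had 0 matches and the other RefSeq start of SRI had 2. No window of a member held TATAAA apart from the other RefSeq start of SRI, which had 2 matches of TATAAA and 0 CpG pairs, and TATAAA was in 11.5% of all windows.

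The 2 noncoding features lie differently against their coding partners. Their exon lengths in the table, 1445 bases for NCMAP-DT and 576 for SRI-AS1, equalled those of the GENCODE release 29 models used for positions here (GRCh38). Those of the coding members did not. RCAN3 had 7138 bases in the table and 7077 in the models, NCMAP 4146 and 4122, and SRI 4226 and 4237. The overlaps given here are those of the models. NCMAP-DT (chromosome 1, 24538802 to 24556024, minus strand) has 3 exons. The last of them, 1075 bases or 74.4% of its exon length, lies wholly opposite the long final exon of RCAN3 (24502351 to 24541040, plus strand), and only the RCAN3-202 transcript reaches that far. The other end of NCMAP-DT faces away from NCMAP (24556111 to 24609328, plus strand), with which it shares no exon.

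SRI-AS1 (chromosome 7, 88216660 to 88219226, plus strand) lies wholly inside SRI (88205118 to 88226993, minus strand). Of its exon length only 84 bases, 14.6%, are opposite an SRI exon, and the rest is opposite SRI introns. That SRI exon (chr7:88218859-88218942, minus strand, GENCODE release 29) is coding in SRI-201 and is carried by 8 SRI transcripts, and it is shown in the SRI direction because it is the single stretch where a read of SRI messenger RNA and a read of spliced SRI-AS1 could share a position.
SRI exon: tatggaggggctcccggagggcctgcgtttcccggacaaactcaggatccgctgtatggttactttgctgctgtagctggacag

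**Figure D1:**
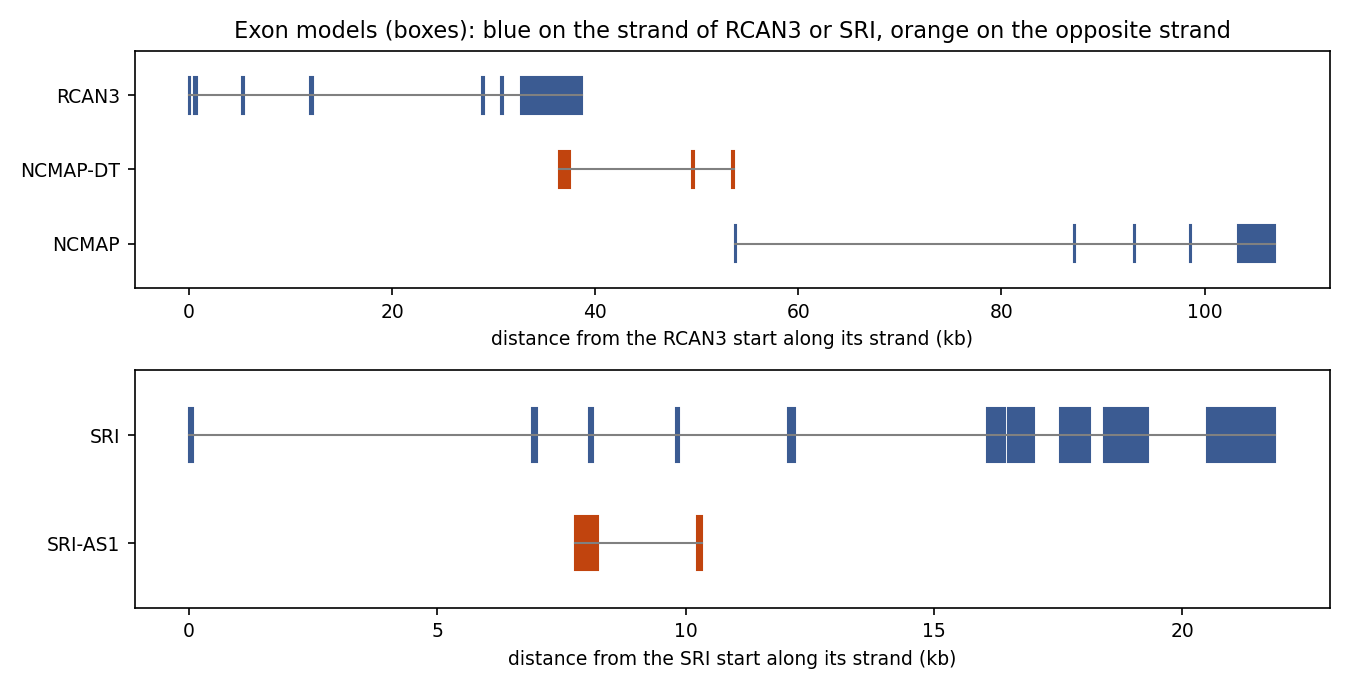
Exon models of the members, with the distance from the RCAN3 or SRI start in kilobases on the horizontal axis; boxes are exons, blue on the strand of RCAN3 or SRI and orange on the opposite strand. The large exon of NCMAP-DT lies opposite the end of RCAN3, and SRI-AS1 lies inside SRI with 84 bases opposite an SRI exon.

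RCAN3 itself was close to undetected. It had 8 and 5 counts in BHB replicates 1 and 2, and 8 and 3 in control replicates 1 and 2. Relative to all counts of the library this was 3.52 counts-per-million (CPM, 95% Wilson interval 1.78 to 6.95) and 2.24 (0.956 to 5.24) in BHB, and 3.12 (1.58 to 6.15) and 1.34 (0.456 to 3.94) in control libraries. The groups overlapped, and every interval overlapped every other, so a difference was not detectable at this depth. These intervals hold the error of counting alone, since several reads may stem from a single molecule. RCAN3 did not pass the filter on low counts, as was the case for RCAN1, its best known relative, with 3 and 3 counts in BHB and 12 and 1 in control libraries. RCAN2, the remaining member of the family, had 0 counts in all 4 libraries. RCAN1 and RCAN2 are given for the family and not for their values.

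NCMAP-DT, opposite the end of RCAN3, held more counts in both BHB libraries. It had 228 and 293 counts in BHB replicates 1 and 2, against 120 and 154 in control replicates 1 and 2. On the scale of trimmed mean of M-values (TMM) CPM it averaged 116 ± 22.1 in BHB and 60.9 ± 24.9 in control libraries (SD, n = 2 each). Both BHB libraries lay above both controls, which was also so for 15.1% of the 9295 features that passed the filter. The fitted log2 fold change of BHB over control was 0.94 (SE 0.34). As the contrast chose this feature, nothing is read from that share or from the size of the change.

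The controls were unlike each other in NCMAP-DT, and the size of the change rested on which of them was used. In TMM-scaled CPM the BHB libraries had 100.5 and 131.8, and control replicates 1 and 2 had 43.2 and 78.5. In CPM of all counts, with no scaling factor, the BHB libraries had 100.4 and 131, and the controls 46.8 and 68.8, so the scaling widened the gap between the controls. The log2 fold change was 0.55 without control replicate 1 and 1.46 without control replicate 2. Without BHB replicate 1 it was 1.13, and without BHB replicate 2 it was 0.72. With both BHB libraries above both controls, leaving out 1 library could not turn the sign. The Wilson intervals in CPM of all counts were 88.1 to 114 and 117 to 147 in BHB, and 39.1 to 55.9 and 58.8 to 80.6 in control libraries.

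NCMAP, whose RefSeq start is at the other end of the 64 bases in capitals above, was listed at 0 in every library. At this depth a 0 still allows 1.32 and 1.34 CPM in BHB, and 1.17 and 1.34 in control libraries. The myelin gene PMP22 had 0 counts as well, and MBP, another myelin gene, had 14 and 16 in BHB and 30 and 2 in control libraries.

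The RCAN3 locus has a further noncoding feature at its other end. RCAN3AS (RefSeq, chromosome 1, 24496254 to 24502382) runs head to head with RCAN3. It had 63 and 64 counts in BHB, against 33 and 65 in control libraries, so that control replicate 2 was level with the BHB libraries and control replicate 1 stood apart. Its log2 fold change was 0.35 (SE 0.50, edgeR adjusted p = 1.0) and turned to −0.24 without control replicate 1, against 1.28 without control replicate 2. Both noncoding features of the locus were thus lowest in control replicate 1. STPG1, the nearest protein-coding neighbour with at least 10 counts on average, had 90 and 73 counts in BHB and 94 and 81 in control libraries, a log2 fold change of −0.05 (SE 0.33). SRRM1, a splicing factor gene downstream, had 15 and 23 in BHB and 29 and 9 in control libraries (log2 fold change 0.15, SE 0.65). Within a library, a comparison that no scaling enters, NCMAP-DT had 3.62 and 4.58 times the count of RCAN3AS in BHB and 3.64 and 2.37 times in control libraries, so that the groups overlapped. It had 2.53 and 4.01 times the count of STPG1 in BHB and 1.28 and 1.9 times in control libraries, where they did not. NCMAP-DT was chosen on this contrast and STPG1 hardly differed between the groups, so nothing is read from that ratio. No such ratio was taken to SRRM1, whose counts varied within both groups.

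SRI was as scarce as RCAN3. It had 8 and 4 counts in BHB replicates 1 and 2, and 8 and 0 in control replicates 1 and 2. This was 3.52 (Wilson interval 1.78 to 6.95) and 1.79 (0.696 to 4.6) CPM of all counts in BHB. In control replicate 1 it was 3.12 (1.58 to 6.15) CPM, and the 0 in control replicate 2 allows up to 1.34. The groups overlapped, and SRI did not pass the filter on low counts. Of the other penta-EF-hand genes, GCA had 4 and 4 counts in BHB and 6 and 2 in control libraries, PEF1 had 8 and 3 in BHB and 12 and 2 in control libraries, and PDCD6 had 0 in all 4. The calpain genes CAPN1, CAPN2 and CAPNS1 were counted more often, with 41 and 63 in BHB and 72 and 44 in control libraries for CAPN1. Other calpain genes on the list were not: CAPNS2 had 0 in all 4 libraries, and CAPN5 and CAPN7 averaged 1.75 and 3.5 counts. CAPN5 and CAPN7 are calpains that lack the penta-EF-hand domain.

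SRI-AS1 held fewer counts in both BHB libraries. It had 149 and 141 counts in BHB replicates 1 and 2, against 305 and 179 in control replicates 1 and 2. The BHB libraries were alike and the controls were not. In TMM-scaled CPM it averaged 64.6 ± 1.6 in BHB and 101 ± 13.2 in control libraries (SD, n = 2 each). In CPM of all counts, control replicates 1 and 2 had 118.9 and 80, against 109.9 and 91.2 with TMM scaling. Here the scaling narrowed the gap between the controls. Both BHB libraries lay below both controls, which was so for 14.0% of the features that passed the filter, and nothing is read from this share either. The log2 fold change was −0.64 (SE 0.27).

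Control replicate 2 was the control nearer to BHB. In CPM of all counts the Wilson intervals were 55.9 to 77 and 53.5 to 74.4 in BHB, and 106 to 133 and 69.1 to 92.6 in control libraries, so that of control replicate 2 overlapped both BHB intervals. The log2 fold change was −0.51 without control replicate 1 and −0.73 without control replicate 2, and −0.64 and −0.61 without BHB replicates 1 and 2. Here too the choice of the feature fixed the sign.

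**Figure D2:**
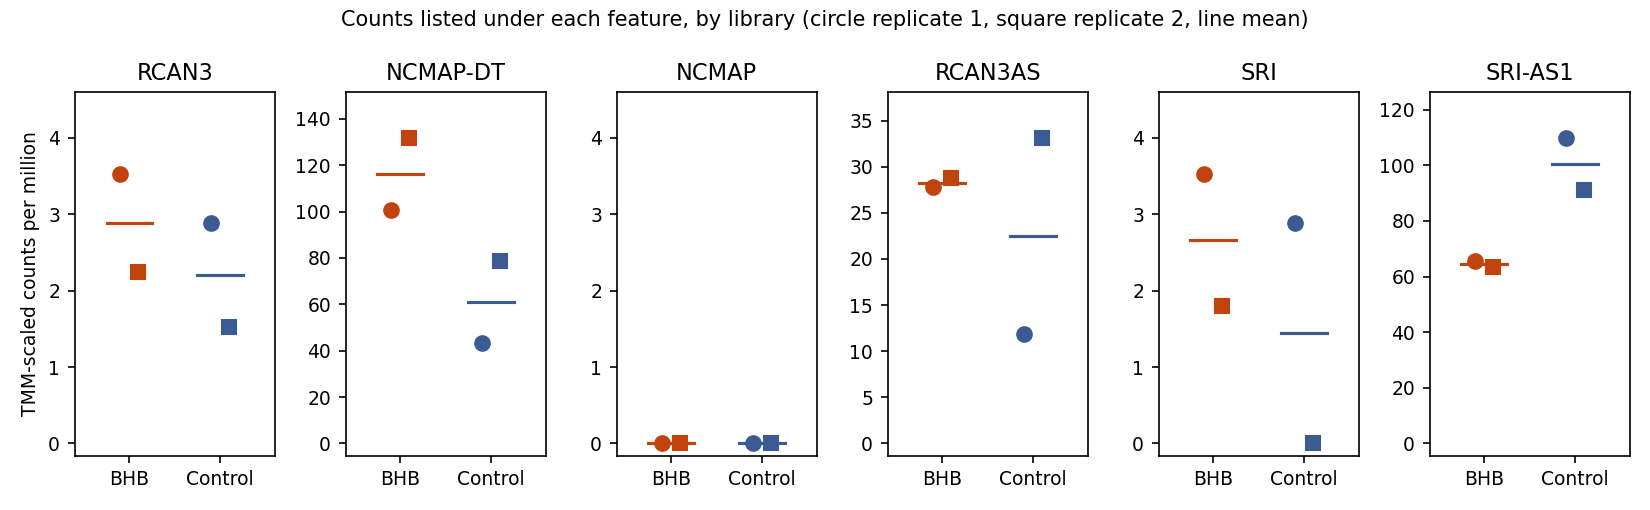
TMM-scaled CPM of each member and of RCAN3AS in the BHB and control libraries; circles are replicate 1, squares replicate 2 and lines the group means, and each panel has its own vertical axis. NCMAP-DT is higher and SRI-AS1 lower in both BHB libraries, while RCAN3, SRI and RCAN3AS overlap and NCMAP is at 0.

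NCMAP-DT and SRI-AS1 stood on opposite sides of their controls, and their ratio within a library needs no scaling. NCMAP-DT had 1.53 and 2.08 times the count of SRI-AS1 in BHB replicates 1 and 2, against 0.393 and 0.86 times in control replicates 1 and 2. The groups did not overlap in this ratio, which the choice of both features fixes.

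**Figure D3:**
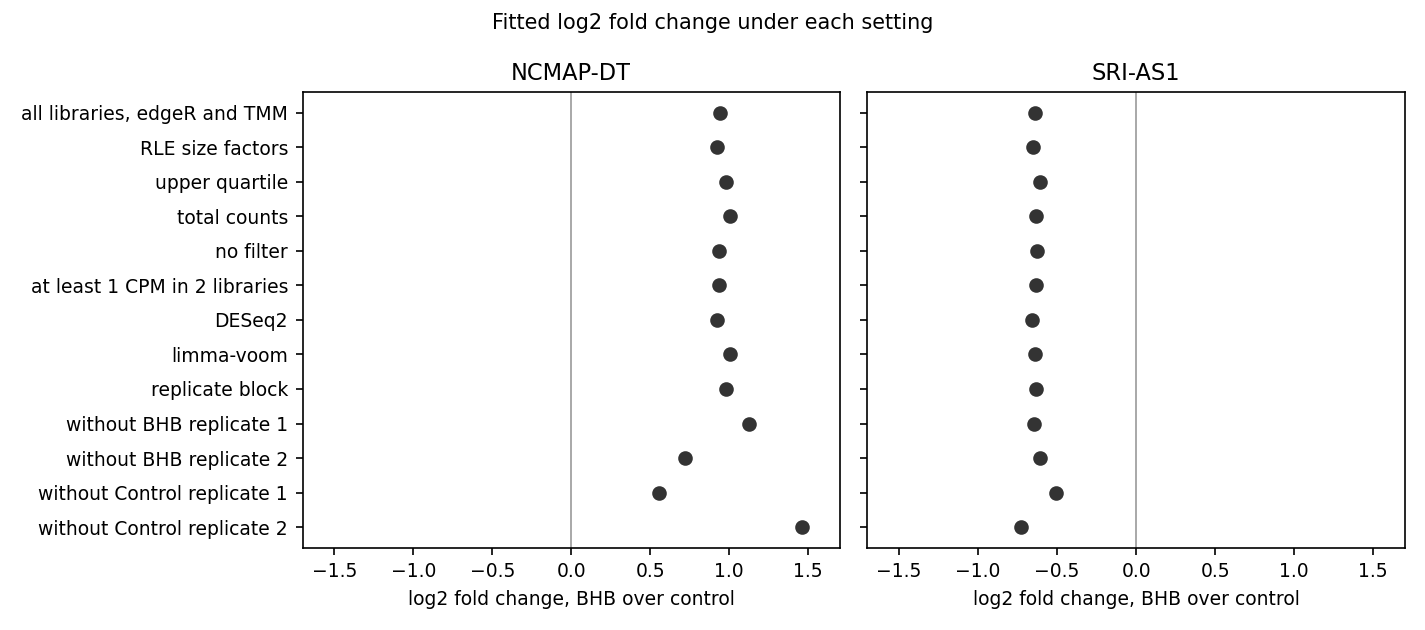
Log2 fold change of BHB over control for NCMAP-DT and SRI-AS1 (horizontal axis) under each fit (vertical axis), from all libraries to each library left out. NCMAP-DT lies between 0.55 and 1.46 and SRI-AS1 between −0.73 and −0.51, and leaving out a control library moves either of them most.

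Levels per length put the noncoding features far above the coding genes. SRI-AS1 had 258.7 and 244.8 counts per kilobase of exon in BHB and 529.5 and 310.8 in control libraries. NCMAP-DT had 157.8 and 202.8 in BHB and 83.0 and 107 in control libraries. RCAN3AS followed at 82.7 and 84.0 in BHB and 43.3 and 85.3 in control libraries. This order held in each of the 4 libraries. SRI, at 1.89 and 0.947 in BHB and 1.89 and 0 in control libraries, and RCAN3, at 1.12 and 0.70 in BHB and 1.12 and 0.42 in control libraries, did not keep an order between them. NCMAP was last, at 0.

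The ratio within each pair was taken per library, on count per kilobase with 0.5 added to each count. NCMAP-DT over RCAN3 had a log2 ratio of 7.05 and 8.04 in BHB and 6.13 and 7.77 in control libraries, with a mean of 7.25 (SD 0.85 over 4 libraries). SRI-AS1 over SRI had 7.01 and 7.85 in BHB and 8.04 and 11.4 in control libraries, with a mean of 8.57 (SD 1.92). The highest of these rests on the 0 counts of SRI in control replicate 2. Such ratios were not rare in this table. Among 712 pairs of a long noncoding feature and the coding gene with most exon bases opposite it, with at least 20 counts in both together, the noncoding feature was higher per kilobase in 73.9%, and the median log2 ratio was 3.69. The NCMAP-DT pair lay above 84.0% of these pairs and the SRI-AS1 pair above 93.1%.

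**Figure D4:**
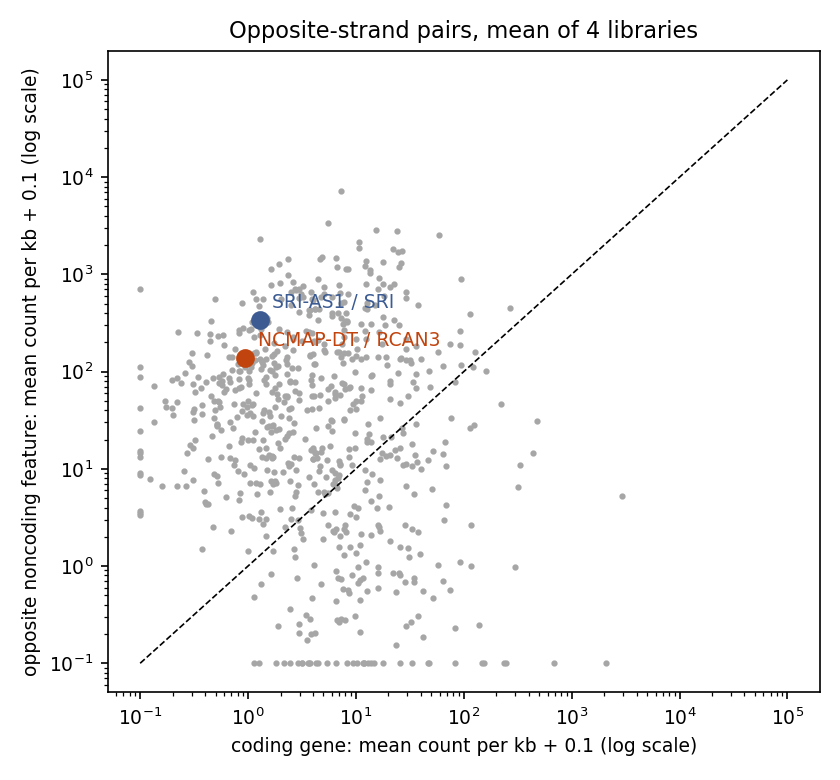
Mean count per kilobase of exon over the 4 libraries for 712 opposite-strand pairs, coding gene on the horizontal and noncoding feature on the vertical axis, both with 0.1 added and on log scales; the dashed line marks equal values. Both member pairs lie far above the line, among many others.

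The library kit was stranded per the labels, and the strand setting of the counting is not given in the sources used here. Counts listed under NCMAP-DT or SRI-AS1 therefore cannot be told apart from reads of the coding strand opposite, which for SRI-AS1 would include unspliced SRI RNA, and the low counts of RCAN3 and SRI need not measure their RNA. The same limit holds for the cell type markers, zeros included, and for the calcium genes below, whose counts need not measure their RNA either. Whether this plays a part in the values given here was not tested.

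By the rule for likeness, the features nearest to NCMAP-DT over the 4 libraries, by Euclidean distance of centred log2 CPM among 4590 named features, were SLC7A11-AS1 at 0.0974, MT-ND5 at 0.111 and NCAPG at 0.159, against a median distance of 1.3. SLC7A11-AS1 had 279 and 334 counts in BHB and 150 and 188 in control libraries. MT-ND5, a mitochondrial complex I gene, had 7134 and 9626 in BHB and 3641 and 4621 in control libraries. All 3 had their lowest value in control replicate 1 and their highest in BHB replicate 2, as NCMAP-DT did. Nearest to SRI-AS1 were ISG20L2 at 0.068, MAP2K7 at 0.0743 and PYGB at 0.0873, against a median of 0.913. ISG20L2 had 72 and 68 counts in BHB and 157 and 88 in control libraries. With 4 libraries a likeness of this kind is a description only.

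The rest of the calcium pathway did not pass the test in either direction. Of 116 genes in 8 lists, 58 passed the filter, and 0 of them were higher and 0 lower with BHB by edgeR's quasi-likelihood test with Benjamini-Hochberg adjustment over all features, where 0.0% of 9295 were called. DESeq2 and limma-voom called 0 as well. At an unadjusted p under 0.05 there were 2 list genes, and 210 features in all. The median log2 fold change of the 58 genes was −0.13, beside −0.03 over all tested features. The BHB libraries lay entirely above the controls in 5 of the 58 and entirely below in 8, which is 8.62% and 13.8% beside 15.1% and 14.0% of all tested features.

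These genes differed between the control libraries. The median log2 ratio of control replicate 1 over control replicate 2 was 0.72 over the 58 genes and −0.06 over all tested features. That of BHB replicate 1 over BHB replicate 2 was 0.01 over the 58 genes and −0.01 over all. Both BHB libraries lay between the controls in 32 of the 58 (55.2%) and in 37.5% of all tested features. Without control replicate 1, 10 list genes (17.2%) were called higher and 1 (1.72%) lower, beside 5.84% and 6.38% of the 9960 features tested in that fit. Without control replicate 2, 3 (5.17%) were called higher and 10 (17.2%) lower, beside 9.43% and 7.21% of 10973. In these fits the lone control library was assumed to vary like the BHB libraries.

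Calcineurin and its regulators had 6 tested genes and a median log2 fold change of 0.23. PPP3CA, a catalytic subunit and the most abundant of them, had 169 and 215 counts in BHB and 408 and 112 in control libraries (log2 fold change −0.26, SE 0.43), with both BHB values between the controls. FKBP1A, the protein through which the drug FK506 reaches calcineurin, had 0.26 (SE 0.33), and CHP1, a calcineurin-like calcium-binding protein, 0.35 (SE 0.69). The list of NFAT factors and their kinases had 7 tested genes and a median of −0.44. Among the 7 were HOMER2 and HOMER3, which are neither NFAT factors nor kinases. NFATC3, the NFAT gene with the most counts, had 420 and 385 in BHB and 251 and 272 in control libraries, and both BHB values were above both controls. Its log2 fold change was 0.65 (SE 0.28), and it did not pass (edgeR adjusted p = 1.0). The kinase genes CSNK1A1 and DYRK1A had −0.44 (SE 0.78) and −0.51 (SE 0.47). Calmodulin and its kinases had 7 tested genes and a median of −0.37, with the kinase genes PNCK at −0.37 (SE 0.27) and CAMK1 at −0.02 (SE 0.34).

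Nearer to sorcin, 4 penta-EF-hand list genes were tested, with a median of −0.16. The calpain genes CAPN2 and CAPN1 had log2 fold changes of 0.70 (SE 0.50) and −0.06 (SE 0.41), and PDCD6IP, a partner of a penta-EF-hand protein, −0.38 (SE 0.59). Genes of the endoplasmic reticulum calcium store, on which sorcin acts, had 11 tested members and a median of −0.13. The chaperone CALR had 581 and 561 counts in BHB and 1413 and 310 in control libraries, and the controls enclosed both BHB values there and in HSPA5 (log2 fold change 0.17, SE 0.58) and CANX (−0.19, SE 0.60). The list of plasma membrane channels, pumps and exchangers had 7 tested members and a median of −0.10. It was not limited to that membrane, as it held the Golgi pump genes ATP2C1 and ATP2C2 and the mitochondrial exchanger gene SLC8B1. CACNA1D, a calcium channel gene, had 0.50 (SE 0.31), ATP2C1 −0.28 (SE 0.45) and ATP2C2 −0.14 (SE 0.54). Mitochondrial calcium uptake had 8 tested members and a median of −0.11. The VDAC genes of the outer membrane, VDAC2, VDAC1 and VDAC3, had −0.25 (SE 0.34), −0.26 (SE 0.44) and −0.25 (SE 0.64). Calcium buffers had 8 and a median of −0.11, with CALU at 0.46 (SE 0.62), S100A1 at 0.02 (SE 0.35) and SDF4 at −0.35 (SE 0.59).

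**Figure D5:**
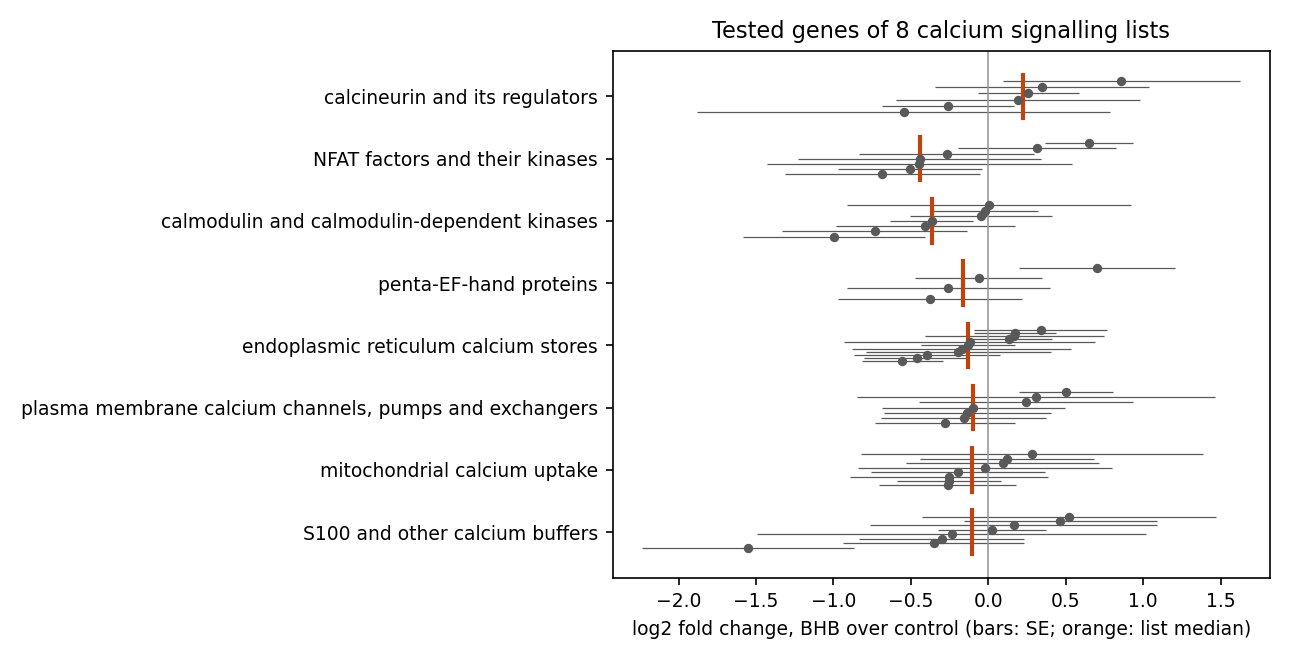
Log2 fold change of BHB over control for the 58 tested genes of 8 calcium signalling lists; points are genes, grey bars their SE and orange lines the list medians. The medians lie between −0.44 and 0.23, and 0 genes passed the test over all features.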

How the data were processed

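RNA was measured in 2 BHB and 2 control libraries of C4-2 cells. The authors deposited raw counts per feature with an exon length and no normalization. The submitters' processing notes list GRCh38 and the tools featureCounts 2.0.3, HISAT2 2.2.1, limma and edgeR, and neither a release of the annotation nor a strand setting is given in the sources used here. Total counts ran from 2233711 to 2565080 per library. Replicates differed beyond sampling noise (chi-square per degree of freedom 2.59 for BHB and 15.2 for control libraries), so each counted once.

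Counts were fitted over the whole table with edgeR 4.0.16 in R 4.3.3 (filterByExpr, TMM, robust quasi-likelihood F-test, FDR under 0.05), with SE from the F statistic. The script was tested on simulated data. Alternatives were other scalings and filters, DESeq2 1.42.0, limma-voom 3.58.1, a replicate block and leaving out each library. Members of the report and gene lists were chosen with earlier results of these data known. Named were the members, the 3 most abundant tested genes of each list, features with at least 10 counts on average within 200 kb of RCAN3 or SRI, and the 3 features nearest to NCMAP-DT and to SRI-AS1 (mean of at least 10 CPM, no clone-style name). Some genes named by this rule or beside it are not reported here. Genes given for a family, and the opposite-strand pairs of list genes, were added after their values were seen. Features were placed on GENCODE release 29 by name or current symbol.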

Additional observations from a re-analysis of the deposited data

How the results depend on the processing

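NCMAP-DT and SRI-AS1 were chosen on this contrast and their groups do not overlap, so that their direction, which was kept in every fit run, is no sign of stability. Leaving out 1 library gave 0.55 to 1.46 for NCMAP-DT, with the lowest value without control replicate 1 and the highest without control replicate 2, and −0.73 to −0.51 for SRI-AS1. Over the whole table it gave 0 to 1035 features higher and 0 to 791 lower, against 0 and 0 with all libraries, and 0 to 13 calcium list genes called. It was control replicate 1 whose removal gave 582 higher and 635 lower, and control replicate 2 whose removal gave 1035 and 791. The cause was not tested. With plain counts in place of counts per kilobase the mean log2 ratio was 4.94 for NCMAP-DT to RCAN3 and 5.69 for SRI-AS1 to SRI, both lower because the noncoding exons are shorter. Leaving out a library gave 6.98 to 7.62 and 7.64 to 9.09 for these ratios. Deviations of same-numbered libraries correlated at −0.02. With 2 libraries a group the crossed numbers give the mirror image, 0.02, so this value cannot tell whether the cultures were paired. With a replicate block the log2 fold change was 0.98 for NCMAP-DT and −0.63 for SRI-AS1, and 0 features were called, with 166 at an unadjusted p under 0.05. RCAN3, SRI and NCMAP had 0 to 8 counts per library, too few to compare the groups at this depth. The strand setting, which is not given, limits them as well.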

Other observations

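Other calcium genes also had a noncoding feature opposite their exons. In 13 such pairs with at least 20 counts in both together the noncoding feature was higher per kilobase in 6. NUCB1-AS1, opposite the calcium-binding gene NUCB1, had 316 and 288 counts in BHB and 339 and 338 in control libraries, while NUCB1 had 9 and 8 in BHB and 43 and 13 in control libraries. ATP2C2-AS1, opposite a Golgi calcium pump gene, had 246 and 249 counts in BHB and 233 and 254 in control libraries, beside 22 and 30 in BHB and 26 and 32 in control libraries for ATP2C2. ITFG2-AS1, with exons opposite the calcium channel gene CACNA1C, had 260 and 215 counts in BHB and 242 and 248 in control libraries. In TMM-scaled CPM both BHB libraries lay between the controls for these 3 features. SDCBP2-AS1, opposite FKBP1A, had 74 and 85 counts in BHB and 60 and 47 in control libraries. It was the 1 noncoding feature of the 13 with both BHB libraries above both controls, while 3 had both below. Among all features that passed the filter the shares were 15.1% and 14.0%, so nothing is read from these numbers. Those below were ATP2B1-AS1 and, near the floor, ATP2A1-AS1 and CACNA1C-AS1. ATP2A1-AS1 had 1 and 1 counts in BHB and 7 and 3 in control libraries, and CACNA1C-AS1 0 and 0 against 2 and 2. TMCO1, an endoplasmic reticulum calcium channel gene, held more counts than the noncoding feature opposite it. It had 272 and 211 counts in BHB and 404 and 334 in control libraries. TMCO1-AS1 had 0 and 2 in BHB and 5 and 1 in control libraries.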
